A study of Mus musculus with 14 samples.

Results

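SOX10 ChIP regions of PY230 mouse mammary tumors that lay close together in groups are described here, as runs of 4 or more regions outside 4 chromosomes. Neighbouring regions of the deposited list were joined into a run when the gap from the end of one to the start of the next was under 10 kb, and chromosomes 4, 11, 15 and X were left out. This gave 342 regions in 75 runs, of 5925 regions on the 16 kept chromosomes and 7929 in the whole list. The series holds 14 samples in 8 groups. The list belongs to the 2 SOX10 ChIP samples, set against 1 control sample. The tumors grew from PY230 cells, a cell line from a mouse mammary tumor of the MMTV-PyMT model, transplanted into syngeneic adult C57BL6J mice, and their cells were isolated by sorting. The ChIP samples come from cells with SOX10 fused to an AVI tag and with BirA, the enzyme that puts biotin on that tag, so that SOX10 could be pulled down on streptavidin beads. The control sample came from control cells pulled down on the same beads, and the labels do not say what these cells carry. The same limits hold for every value below: the SOX10 seen is the tagged protein, the cells are 1 tumor line, and the 2 ChIP samples share 1 list.

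SOX10 belongs to the SOXE group of transcription factors, which bind the minor groove of DNA through an HMG box and bend it. It is best known for specifying neural crest cells and their glial and pigment cell derivatives, and in the mammary gland it marks cells with stem and progenitor properties. Factors of this kind often bind several sites within one regulatory domain. Several regions within a short stretch of a chromosome can therefore belong to 1 locus, and runs collect such places without reference to how strong each region is.

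The deposited signal behaves as a mean coverage per base, and its unit is not stated. Read equivalents, computed from signal and width, are a reading of these values and not reads that were counted. The median member had 8.97 read equivalents (quartiles 5 and 15), and 56.1% of members had fewer than 10. The list has no value for each sample, so nothing below has a replicate error, and every comparison is a description without a test. Regions could not be tied to genes, since the gene table at hand follows the GRCm38.p6 build and the list follows mm9. The loci are therefore given by position (mm9, start counted from 1), and no sequence of a region was read.

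Runs were spread unevenly over the kept chromosomes. Chromosome 13 held 13 runs with 56 regions, chromosome 10 held 11 runs with 54 regions, chromosome 19 held 9 runs with 37 regions and chromosome 1 held 8 runs with 35 regions. These 4 chromosomes held 41 of the 75 runs. Chromosome 8 followed with 6 runs, chromosomes 3, 7 and 18 had 4 each, chromosomes 6, 12 and 17 had 3, chromosomes 5, 14 and 16 had 2, and chromosome 2 had 1. Chromosome 9 held no run of 4 or more among its 317 regions.

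As a share of a chromosome's own regions, members were commonest on chromosome 10 (12.8% of 421 regions) and chromosome 19 (11.7% of 317). Chromosome 13 had 9.54% and chromosome 8 had 8.54%. The share fell to 0.891% on chromosome 2, where 4 of 449 regions were members, and it was 5.77% over all kept chromosomes. On the 4 chromosomes left out, 301 of 2004 regions, or 15.02%, lay in 54 runs of 4 or more.

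Density and the number of runs did not always go together. Chromosomes 13, 18 and 19 have 4.98, 4.42 and 5.17 regions per Mb, densities close to those of the dense chromosomes 4, 11 and 15 that were left out (5.39, 4.62 and 5.15). They held 26 of the runs and 32.5% of the members, with 21.9% of the kept regions. The members are thus not confined to sparse chromosomes. Yet chromosome 18 had 4.58% of its regions in runs, less than the share over all kept chromosomes, and chromosome 10 had the highest share at 3.28 regions per Mb.

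**Figure D1:**
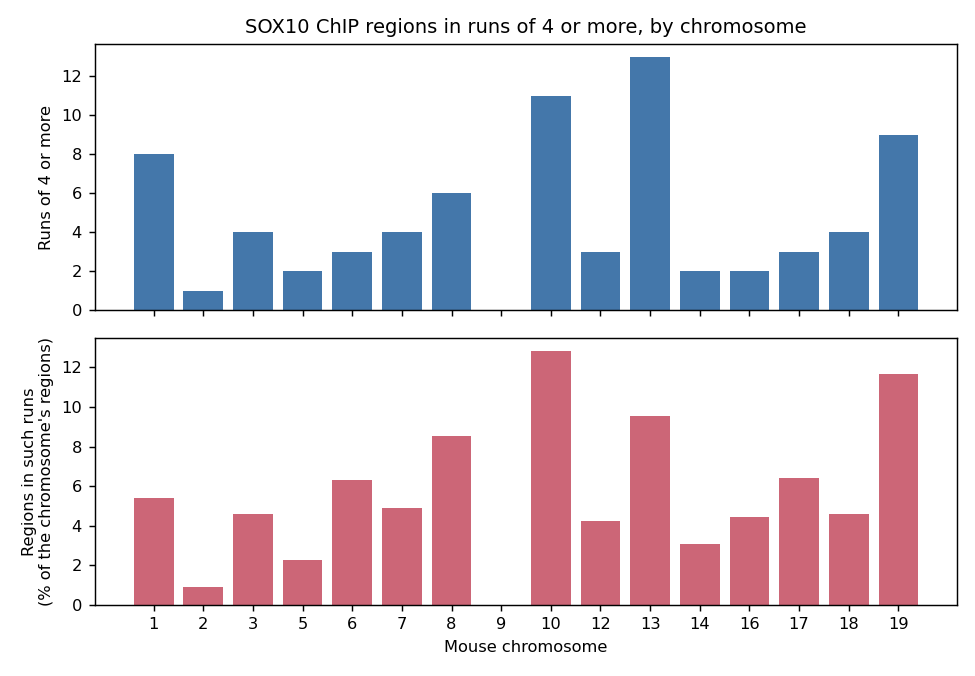
Number of runs of 4 or more SOX10 ChIP regions (upper bars) and the percentage of each chromosome's regions that lie in them (lower bars), for the 16 kept mouse chromosomes. Chromosome 13 has the most runs (13), chromosome 10 the highest share (12.8%), and chromosome 9 has none.

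Most runs were short. Of the 75 runs, 51 had 4 regions, 13 had 5, 6 had 6, 4 had 7 and 1 had 9. Their span had a median of 16.3 kb (quartiles 11.96 and 20.1) and ranged from 4.36 to 51.0 kb. Regions covered a median of 22.8% of a run's span (range 7.82% to 73.8%), so that most of a run lay outside the called regions. The longest runs were on chromosome 10 (chr10:61742176-61793206, 51.0 kb with 7 regions), chromosome 18 (chr18:47308181-47337151, 29.0 kb with 6 regions) and chromosome 10 again (chr10:40216938-40245013, 28.1 kb with 7 regions). The shortest were on chromosome 17 (chr17:3080209-3084569, 4.36 kb with 5 regions), chromosome 7 (chr7:12595743-12601239, 5.50 kb with 4 regions) and chromosome 1 (chr1:87420581-87426445, 5.87 kb with 4 regions).

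Gaps between neighbouring members had a median of 2791 bp (quartiles 1245.5 and 5630.5, range 54 to 9906) over 267 gaps. Of these gaps, 57 were under 1000 bp and 37 under 500 bp, distances at which the list does not show whether regions are separate sites. When regions less than 1 kb apart were first joined into 1, 45 runs with 203 regions were left, so part of the runs exist because close regions were listed apart. At the other end, 10 gaps were 9000 bp or more.

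Runs at the edge of the rule had signals like those just beyond it. Among runs of 4, the largest single gap was 9.91 kb in chr8:95405207-95420951 (median signal 0.0272), 9.74 kb in chr13:34800649-34818625 (median signal 0.0261) and 9.55 kb in chr13:37633451-37653626 (median signal 0.0274). Of 135 runs of 3, those nearest to a further region missed it at 10.3 kb in chr19:56738709-56751650 (median signal 0.0150), at 10.4 kb in chr1:167540426-167550805 (median signal 0.0268) and at 10.5 kb in chr13:29851741-29862098 (median signal 0.0255). The edge thus passes through runs of similar strength, with the run on chromosome 19 weaker than the others.

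Member signal was close to that of other regions on the same chromosomes. The median was 0.0288 for members (quartiles 0.0201 and 0.0410, n = 342), 0.0271 for regions in runs of 2 or 3 (quartiles 0.0194 and 0.0345, n = 1781) and 0.0264 for single regions (quartiles 0.0187 and 0.0346, n = 3802). The member median was 1.09 times that of single regions, a log2 difference of 0.13, while the quartiles of the 3 groups overlapped over most of their range. Without the 7 runs of highest median, described below, the member median was 0.0271, or 1.03 times that of single regions. The difference between members and single regions was therefore small beside the spread within either group. Runs of 4 or more on the chromosomes left out had a median of 0.0423 (quartiles 0.0310 and 0.0535).

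Within chromosomes, the member median was above that of single regions on 12 of 15 chromosomes and below it on 3. The log2 difference was 1.503 on chromosome 6, where members had a median of 0.0761 and single regions 0.0268. It was 0.38 on both chromosomes 2 and 12 and 0.30 on chromosome 1, and it lay between 0.04 and 0.20 on the 8 other chromosomes above 0. On chromosomes 14, 17 and 18 it was -0.41, -0.22 and -0.20. Chromosomes 13 and 19, both rich in runs, had differences of 0.04 each.

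Members were a little wider than single regions, with a median of 720 bp (quartiles 549.5 and 1010.75) against 646 bp (quartiles 471.25 and 885). Regions in runs of 2 or 3 had a median of 721 bp, so width did not rise further with run size over all members. Without the 7 runs of highest median, the members had a median of 746 bp. Regions of 1500 bp or more made up 8.19% of members (28 regions) and 4.58% of single regions. In read equivalents, the median was 8.97 for members and 6.65 for single regions, and 22.5% of members against 33.6% of single regions had a value under 5.

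**Figure D2:**
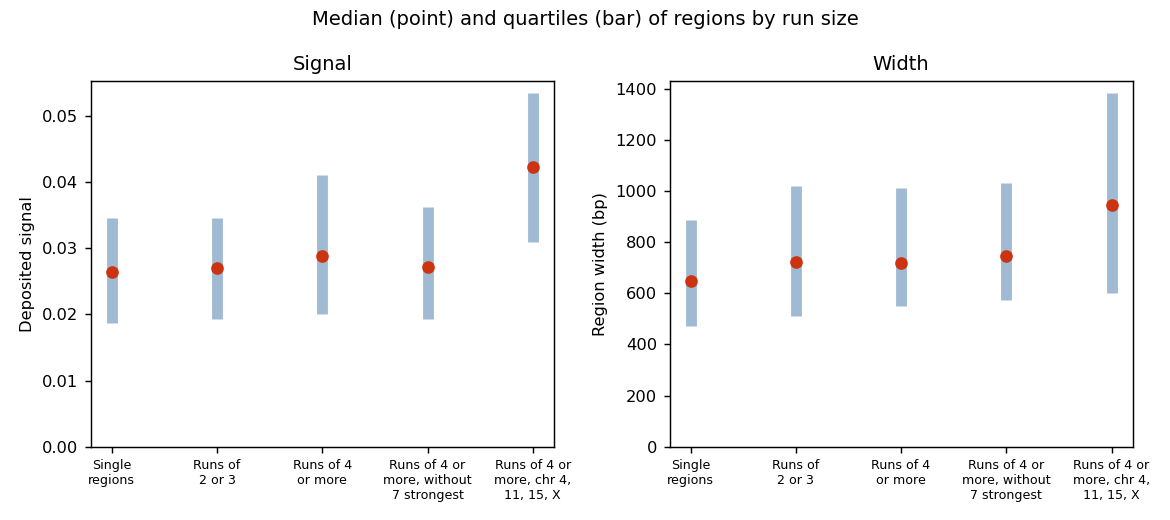
Signal (left) and width in bp (right) of regions by run size, as the median (point) and the range from the lower to the upper quartile (bar). On the 16 kept chromosomes the medians of signal lie between 0.0264 and 0.0288, and runs of 4 or more on chromosomes 4, 11, 15 and X have a median of 0.0423.

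High signals were found in a minority of runs. A signal of 0.0481 or more is reached by 10% of the whole list and by 6.68% of the 5925 regions on the kept chromosomes. Among members 62 of 342 reached it, or 18.1%. Of these 62, 35 lay in the 7 runs of highest median and 27 in the other 68, where they made up 8.85% of 305 members. That split is in part built in, since the 7 runs were picked by signal. In all, 26 runs had at least 1 region at this level, 49 runs had none and 6 runs had all of their regions there.

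The 7 runs of highest median were set apart after the run medians had been seen. They lay on chromosomes 1, 6, 7 and 17, held 37 members, and had medians of 0.0784 to 0.313. The next run, chr19:5839785-5850455 with 4 regions over 10.7 kb, had a median of 0.0506, and no run median lay between. Members of the 7 runs were narrower than other members as a set (median 506 bp against 746 bp). The runs chr1:87420581-87426445 and chr1:87544079-87550076 went the other way, with median widths of 1106.5 and 786.5 bp. Members of the 7 runs had a median of 27.8 read equivalents against 8, and none of the 37 had fewer than 5. Both are in part built in, since read equivalents are computed from signal, by which the 7 runs were picked.

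The run of highest median was chr1:85240413-85251964, with 4 regions over 11.6 kb. From left to right its signals were 0.128, 0.179, 0.476 and 0.448, and the strongest of them was 151 bp wide. A pair of further runs lay on the same chromosome, chr1:87420581-87426445 with signals of 0.0855, 0.112, 0.0697 and 0.123, and chr1:87544079-87550076 with signals of 0.0859, 0.0976, 0.177 and 0.0862. All regions of the 3 runs were thus above the level that 10% of the list reach. In the first of this pair, regions covered 73.8% of the span, the highest share of any run.

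On chromosome 17 the run chr17:3080209-3084569 held 5 regions with signals of 0.381, 0.559, 0.230, 0.178 and 0.139. It had the highest signal of any member, at 140.5 read equivalents in 650 bp (chr17:3081520-3082169), and ranked 3 in the whole list. The run begins 79.4 kb after the lowest start in the list, which is at 3000777. Whether this place plays a part in its signal was not tested. On chromosome 7 the run chr7:12595743-12601239 fell in signal from left to right, with 0.269, 0.160, 0.0449 and 0.0420, and its nearest neighbour in the list was 1298 kb away.

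Chromosome 6 held the run with the most regions, chr6:47610742-47635572, with 9 regions over 24.8 kb. Its signals from left to right were 0.189, 0.0737, 0.206, 0.0784, 0.0494, 0.214, 0.0631, 0.195 and 0.0730. Regions near 0.2 thus alternated with 1 or 2 regions under 0.08. A second run, chr6:47687300-47708071, followed after 51.7 kb with 7 regions and signals of 0.197, 0.137, 0.0964, 0.0916, 0.0858, 0.166 and 0.0645. Together the 2 runs had 16 of the 22 members on chromosome 6, and the signal of members on that chromosome rests on them. Whether repeated sequence or the mapping of reads plays a part in these runs was not tested. The remaining run, chr6:85789854-85815411, had 6 regions with signals from 0.0183 to 0.0428 and a median of 0.0315.

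**Figure D3:**
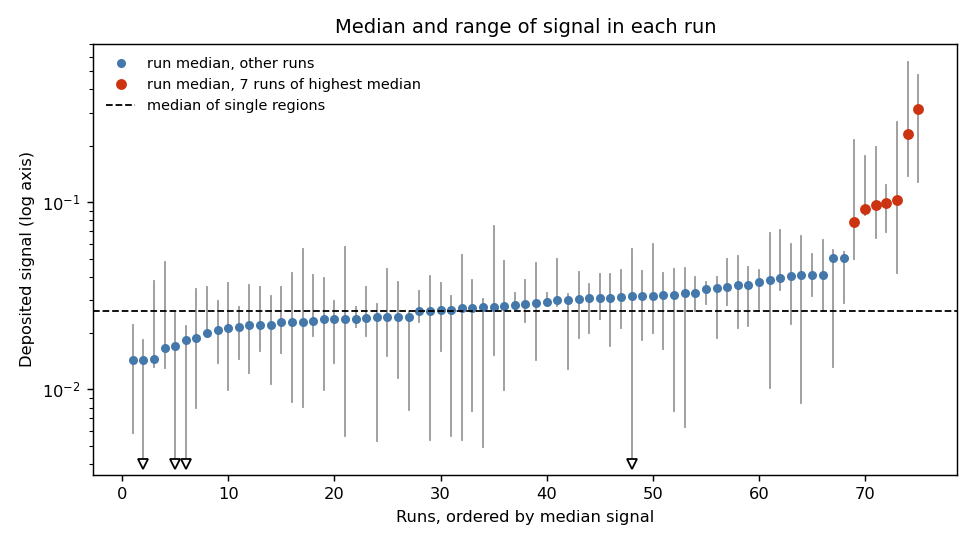
Median (point) and range from lowest to highest region (line) of deposited signal in each of the 75 runs, in order of the median, on a log axis, with the median of single regions on the kept chromosomes as a dashed line. Open triangles at the lower edge mark runs with a region at 0, and the 7 runs at the right have medians of 0.0784 to 0.313, above all others.

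The other large runs had signals near that of single regions. The run chr10:61742176-61793206 had 7 regions with signals of 0.0301, 0.0300, 0.0279, 0.0354, 0.0281, 0.0304 and 0.0497, a nearly level series with 1 higher value at its right end. The run chr10:40216938-40245013 had 7 regions from 0.0160 to 0.0352 with a median of 0.0221. In chr8:129350186-129377328, also with 7 regions, signals ran from 0.00534 to 0.0524, a ratio of 9.81. Its weakest region had 1.00 read equivalents. These 3 runs hold as many regions as the second run on chromosome 6, and their medians of 0.0221 to 0.0301 lie far below its 0.0964.

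Of the 6 runs with 6 regions, which sit on chromosomes 1, 3, 6, 10, 16 and 18, all had medians between 0.0230 and 0.0315. The run chr18:47308181-47337151 had the widest member, of 2589 bp, and 88.0 read equivalents in all. The run chr16:92990047-93014390 had 34.5 read equivalents, the fewest of the 6, with 2 of its regions at 0.00722 and 0.00530. The runs chr3:116653652-116670681 and chr1:182320451-182339658 had medians of 0.0308 and 0.0230, and chr10:120933757-120944594 packed its regions into 10.8 kb with a median of 0.0280.

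On chromosomes without a run of 6, the run with the most regions had 4 or 5. Where runs tied, the one with the larger summed signal is named, so the medians given here lean high. The runs chr12:26466608-26480072 and chr13:58687678-58703249 had 5 regions each with medians of 0.0407 and 0.0410, and chr5:32713284-32728610 had 4 regions with a median of 0.0503. The runs chr2:103108623-103126068 and chr14:73774070-73789140 had 4 regions each with medians of 0.0342 and 0.0303. On chromosome 19, chr19:24234922-24249827 had 5 regions with a median of 0.0213.

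The lowest run medians were 0.0144 in chr10:94654641-94676065, 0.0144 in chr14:17579784-17589334, 0.0145 in chr17:71077833-71103329 and 0.0166 in chr3:35044323-35053684. The first of these had signals of 0.0108, 0.0221, 0.00586 and 0.0181 and 10.0 read equivalents over its 4 regions, the fewest of any run. The second had 1 region at a signal of 0, and 4 members in all were at 0, each in a run of its own. At such levels a run rests on a handful of read equivalents per region, and leaving out regions at 0 before joining gave 71 runs in place of 75.

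**Figure D4:**
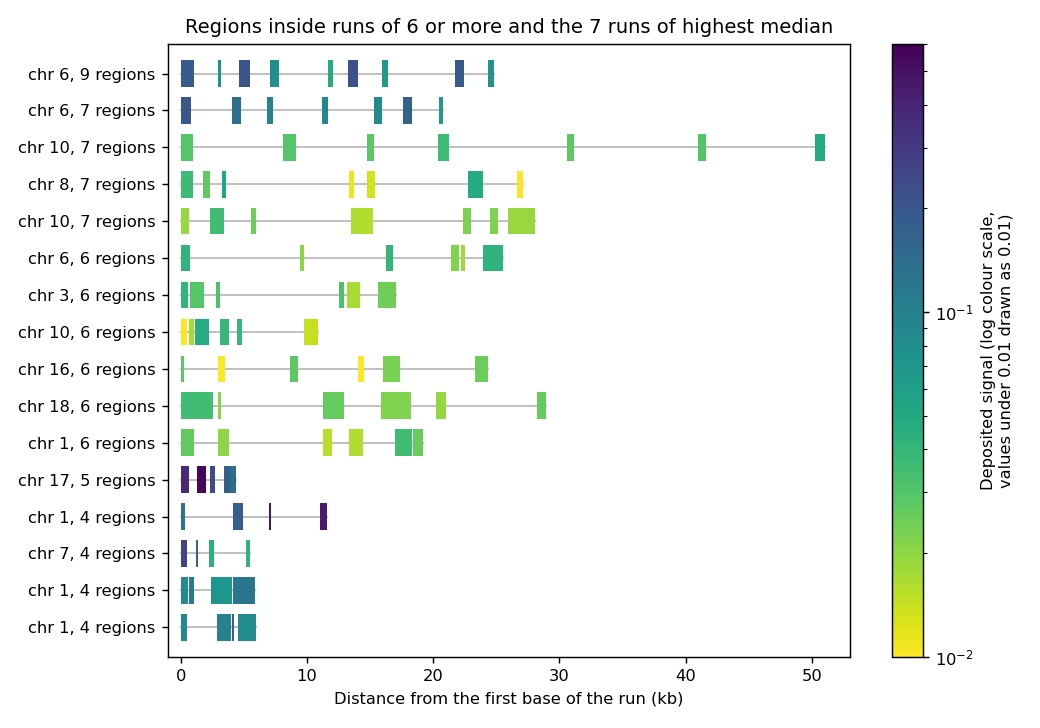
Regions (boxes, drawn to scale) along the 11 runs of 6 or more and the further 5 of the 7 runs of highest median, by distance in kb from the first base of each run, with darker boxes for higher signal on a log colour scale. Runs of similar length differ in signal, and the run of 7 regions in the third row reaches 51.0 kb.

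Regions of the same run often differed in signal. The ratio of the highest to the lowest signal had a median of 2.55 over the 71 runs without a region at 0 (quartiles 1.98 and 4.26). It was under 2 in 18 runs and 5 or more in 13. Over 338 members above 0, 51.9% of the variance of log2 signal lay between runs, with an SD of 0.77 between runs and 0.74 within them. Without the 7 runs of highest median, 4.47% lay between runs, with SDs of 0.16 and 0.73. That drop is in part built in, since the 7 runs were picked by their signal. The 4.47% therefore describes the other 68 runs only, and it cannot show how alike regions of 1 run are.

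The strongest region sat at an end of the run in 28 of 75 runs, and the weakest in 42. End places, as a share of the places in each run summed over runs, come to 34.1. The weakest region was thus at an edge in more runs than the strongest, a difference that was not tested.

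Spacing inside runs was mostly irregular. The coefficient of variation of start-to-start distances had a median of 0.590 (quartiles 0.423 and 0.744). The most even run was chr8:83371586-83394340, with 5 regions, distances from 4493 to 6307 bp and a coefficient of 0.138. Its signals were also nearly equal, from 0.0269 to 0.0326. The next were chr10:111232710-111244464 (0.164, distances from 3034 to 4175 bp) and chr17:71077833-71103329 (0.173, distances from 6685 to 9402 bp). The least even were chr3:116653652-116670681 (1.21), chr10:120933757-120944594 (1.01) and chr8:95405207-95420951 (0.975), in which some neighbours lay close together and others far apart.

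Some runs were parts of wider groups. The nearest region outside a run was a median of 43.3 kb away (quartiles 18.2 and 83.4), and 21 runs had one within 20 kb. In 18 runs none lay within 100 kb. Of the 75 runs, 14 formed 7 pairs less than 200 kb apart. The closest pair was on chromosome 13, where chr13:37597709-37619742 and chr13:37633451-37653626 were 13.7 kb apart with median signals of 0.0302 and 0.0274. A pair on chromosome 10, chr10:111232710-111244464 and chr10:111269106-111281763, was 24.6 kb apart with medians of 0.0362 and 0.0221. Chromosome 13 had 2 further pairs, at distances of 43.0 and 144 kb, and chromosome 19 had 1 at 109 kb. The pairs on chromosomes 6 and 1, at 51.7 and 118 kb, joined runs that both belong to the 7 of highest median.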

How the data were processed

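ChIPmentation, in which a transposase adds sequencing adapters to chromatin on the beads, was used for all samples. The submitters' processing notes name FastQC, Bowtie 0.12.8, SAMtools 1.3.1, MACS2 2.1.1 and the build mm9. How regions were called and how the signal was computed is not given in the sources used here. The deposited file is 1 list, named in the labels of both SOX10 ChIP samples, with a signal per region whose scaling is not stated. The depth of each sample is unknown. Other samples were not analysed here.

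Runs were built in Python 3.11.15 with pandas 2.3.3 and numpy 2.4.6. Signal times width was a whole multiple (within 0.05) of 0.0479 in 100% of 7282 regions under 1500 bp with signal above 0. In 39.2% of them the multiple was divisible by 54, so read equivalents are signal times width over the step and 54. The counts of runs and regions, the step, the read length and the SDs between and within runs were checked on 1 simulated list. Its read length of 54 was planted, so that list does not show that 54 holds here. Other quantities were not checked in this way. Named runs (30) are those with 6 or more regions, with the 8 highest or 4 lowest medians, the 3 longest, shortest, most even and least even, and the run with most regions on each chromosome (ties went to the larger summed signal). Members and rules were chosen with earlier results of these data known. No test was run, since regions of 1 list are not replicates. The planned assignment to genes and search for SOX motifs were not run, as no mm9 annotation or sequence was used here.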

Additional observations from a re-analysis of the deposited data

How the results depend on the processing

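No paired analysis was possible because the file gives a single signal per region and no value by sample, and no replicate could be left out. Medians are given where they left the 95% interval that binomial ranks give the median. This interval treats regions, gaps or runs of 1 list as independent draws, and regions of 1 run are not. For the difference, the median of single regions was held fixed. The interval therefore only chose which values to print and is no error across samples. With a gap limit of 5 kb there were 138 members in 31 runs, with a median span of 9.62 kb, a median gap of 1817 bp, a median signal of 0.0346 and a log2 difference from single regions of 0.38. With 20 kb there were 666 in 141 runs, with 25.2 kb and 4449 bp. Within the stronger 50% of the list, 78 regions formed 17 runs, with 13.5 kb, 1935 bp, a median width of 667.5 bp, a median signal of 0.0537 and a difference of 0.59. Runs of 3 or more had a median span of 11.5 kb, and runs of 5 or more 20.1 kb with a gap of 2102.5 bp. Joining regions under 1 kb apart first left 203 regions in 45 runs, with 18.6 kb and 3904.5 bp. For signal times width the difference was 0.43. The share of variance between runs was 69.5% at 5 kb, 40.9% at 20 kb, 54.5% with centre-to-centre distances, 70.6% in the stronger 50%, 51.7% with regions at 0 removed, 44.6% in runs of 3 or more, 62.3% in runs of 5 or more, 47.2% with close regions joined and 4.47% without the 7 runs of highest median. The cause of these changes was not tested. The last is in part built in, since its runs were left out by their signal. The log2 difference of members from single regions was above 0 under all 13 alternatives, from 0.04 to 0.59. Among these, 1 used signal times width, which also carries the greater width of members. The lowest difference was the value without the 7 runs of highest median. The highest was that within the stronger 50% of the list, which was itself picked by signal. The alternatives reuse the same regions, so they are not separate supports. The joining of close regions and the removal of the 7 runs were chosen after seeing the data. The alternatives on genes and on sequence were not run. Few read equivalents per region limit the ranking of single members.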

Other observations

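Spacing in the chromosome 6 runs was looked at after their values had been seen, and the division at a signal of 0.1 was chosen then. Centres of neighbouring regions were 1.80 to 5.91 kb apart in the run of 9 regions and 2.30 to 4.40 kb apart in the run of 7. In chr6:47610742-47635572, the 4 regions above this signal had centres 4.53, 8.58 and 8.46 kb apart, and the 5 regions below it had centres 4.31, 4.44, 4.34 and 8.40 kb apart. These distances lie between 4.31 and 4.53 kb or between 8.40 and 8.58 kb. In chr6:47687300-47708071, the 3 regions above 0.1 had centres 4.00 and 13.5 kb apart, and the 4 below it had centres 4.40, 4.19 and 4.97 kb apart. Regions on the same side of 0.1 thus lay 4.31 to 4.53 kb apart at several places in the first run. In the second they lay 4.00 to 4.97 kb apart, except at 1 distance of 13.5 kb. How common such distances are in other runs was not counted. The start-to-start distance of adjacent regions is another measure, since it skips no region. Its run median was 2661 bp in the run of 9 regions. Over all 75 runs, the run medians had a median of 4033 bp (quartiles 2743 and 5313). Whether the sequence is repeated there, or reads map to more than 1 place, was not tested.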
